A study of Rattus norvegicus with 6 samples.

Results

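Collagen chains, laminin chains and other genes of the stromal matrix were followed in the rat lateral ventricular choroid plexus, the tissue that secretes cerebrospinal fluid, at embryonic day 15 (E15) and in the adult. The members were the genes whose name, in the table of genes that the authors had called different between these ages, began with a symbol of a collagen, laminin, fibrillin, fibulin, emilin, matrilin, microfibril-associated protein, glypican, testican, lysyl oxidase or prolyl or lysyl hydroxylase, or was that of a listed matrix protein such as fibronectin, versican or lumican. That rule found 77 genes among 10093 named identifiers, in a table of 10653, out of 29479 identifiers counted in the series. Every member was therefore already known to be called in the comparison of E15 with adult, so the age differences below describe the members and test nothing. Genes that fit the name pattern but were not in that table have no name here and were not analysed here. Of the members, 74 encode matrix proteins or enzymes that modify them, and 3 (Col4a3bp, Mfap3 and Mfap3l) do not.

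The samples were 3 pools of E15 embryos and 3 pools of adult rats (6 weeks old), all untreated Sprague-Dawley animals with no introduced allele. Each pool joined the plexuses of both lateral ventricles from 10 animals and gave 1 library, so differences between single animals were averaged within a pool. The plexus was taken whole, with its epithelium, stroma and vessels. Libraries held 17875089 to 18901272 counts at E15 and 18421472 to 19204440 in the adult. The tissue label was checked on 12 epithelial markers, among them transthyretin (Ttr) and klotho (Kl). All 12 were detected in every pool and all 12 were called higher in the adult. These were the 12 of 17 listed markers that the authors' table named, so each was already called by the authors. E15 replicate 1 stood furthest from its age, and results that rest on a single pool are given with and without it.

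The choroid plexus stroma is a core of loose connective tissue and fenestrated vessels beneath a secretory epithelium. Fibrillar collagens give such tissue tensile strength, and elastic fibres and microfibrils give it recoil. Both the epithelium and the vessels rest on basement membranes, sheets in which a laminin polymer and a type IV collagen network are tied together by nidogen, perlecan and agrin. Collagen and laminin molecules are trimers of chains made by separate genes, and lysyl oxidases and hydroxylases modify the chains that are built into fibres.

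The start regions of 6 genes are printed because they belong to the chains on which the comparison turns: the type IV collagen genes, which lie in head-to-head pairs that start close together, and the laminin alpha chains Lama1 and Lama2, which differed between the ages in opposite directions. The sequences are from RefSeq (rat build GRCr8), are upstream of the annotated gene start and run 5′ to 3′ on the strand of the gene. Capitals mark a match, on either strand, to the TATA box letters TATAAA, to the CAAT box letters CCAAT or to the GC box letters GGGCGG, so that a match on the other strand reads as the reverse complement. The interval between the starts of Col4a1 and Col4a2 spans 76 bases, chr16:84885521-84885596, and is printed on the plus strand. The Col4a3 sequence is chr9:91323740-91323989 (plus strand), that of Col4a4 is chr9:91323578-91323827 (minus strand), and these windows share 88 bases, since 412 bases lie between the starts of the genes. The Lama1 sequence is chr9:115139298-115139547 (plus strand) and that of Lama2 is chr1:19491896-19492145 (plus strand).
Col4a1 to Col4a2: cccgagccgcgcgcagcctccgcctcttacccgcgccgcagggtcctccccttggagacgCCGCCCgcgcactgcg
Col4a3: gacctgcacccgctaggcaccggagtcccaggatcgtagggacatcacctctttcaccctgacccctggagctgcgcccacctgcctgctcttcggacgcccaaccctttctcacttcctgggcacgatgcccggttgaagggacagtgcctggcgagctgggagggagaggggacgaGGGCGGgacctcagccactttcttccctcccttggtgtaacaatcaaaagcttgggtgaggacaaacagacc
Col4a4: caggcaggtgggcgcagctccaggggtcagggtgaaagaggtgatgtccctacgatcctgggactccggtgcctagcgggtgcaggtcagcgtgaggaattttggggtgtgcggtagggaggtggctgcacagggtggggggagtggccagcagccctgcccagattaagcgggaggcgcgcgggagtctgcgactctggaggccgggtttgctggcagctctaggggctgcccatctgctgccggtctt
Lama1: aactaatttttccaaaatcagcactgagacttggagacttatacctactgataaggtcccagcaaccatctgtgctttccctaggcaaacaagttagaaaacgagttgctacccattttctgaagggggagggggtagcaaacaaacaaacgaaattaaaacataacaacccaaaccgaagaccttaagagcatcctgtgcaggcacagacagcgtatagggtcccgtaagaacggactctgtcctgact
Lama2: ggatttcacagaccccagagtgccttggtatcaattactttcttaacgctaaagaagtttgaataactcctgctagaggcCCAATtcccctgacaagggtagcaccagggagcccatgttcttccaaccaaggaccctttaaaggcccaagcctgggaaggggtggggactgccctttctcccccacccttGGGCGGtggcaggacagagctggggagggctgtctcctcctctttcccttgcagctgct
Neither TATAAA nor CCAAT was in the interval between Col4a1 and Col4a2, which held GGGCGG on the minus strand and had a GC content of 78.9%. Col4a3 had GGGCGG, Col4a4 and Lama1 had none of the motifs, and Lama2 had CCAAT and GGGCGG. Of the 77 members, 59 were matched to a RefSeq start region. In the 250 bases upstream, GGGCGG occurred in 57.6% of these 59 and in 32.4% of all 27455 start regions of the same length. CCAAT occurred in 22.0% against 34.3%, and TATAAA in 10.2% against 13.1%. The start regions of the members were also richer in G and C, with a median GC content of 62.0% against 52.0% over all start regions. Their median number of CG dinucleotides was 12 against 6. None of these comparisons was matched for expression or for type of gene. The motif shares were also not matched for GC content. Members called at E15 and members called in the adult had similar shares for GGGCGG, 56.1% of 41 and 60.0% of 15. Members without an entry included Bgn, Col12a1, Col1a1, Col2a1, Col3a1, Col4a3bp, Col6a2, Dcn, Eln, Emilin1, Fbln1, Fn1, Lox, Matn2, Matn4, Mfap4 and Thbs2.

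Most matrix genes were higher at E15, and a smaller set was higher in the adult. Of the 77 members, 54 were called higher at E15 and 20 higher in the adult by the quasi-likelihood test of edgeR at a Benjamini-Hochberg adjusted p below 0.05, and Col6a6, Lamb3 and Spock1 passed in neither direction. Over all 16643 genes tested, 34.7% were called higher at E15 and 29.3% higher in the adult, 64.0% in either direction. Under scaling by total counts only the members divided 57 to 13, and the part of all calls that were higher at E15 went from 54.2% to 81.0%. Of the genes named in the authors' table, which were selected as the members were, 50.6% were called higher at E15 and 42.2% higher in the adult, 92.8% in either direction. Normalized counts, which are raw counts scaled between libraries by edgeR's TMM factors, did not overlap between the ages for 76 members, against 70.1% of all genes tested, and Spock1 was the exception. The median log2 fold change of the members (E15 minus adult) was 2.42, or 2.32 with the 2 members that had no adult count held at their lower bound, against 0.14 over all genes tested and 0.73 over the named genes of the table. A difference above 10-fold was found at E15 for 34 members and in the adult for 2, against 9.53% and 3.18% of all genes tested. All genes tested include genes that the authors did not call. These shares and the 70.1% above are therefore not from genes selected as the members were. In RNA of a whole tissue, fewer cells of a type and less RNA in each cell cannot be told apart.

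The smallest differences among called members were those of Plod3 (1.41-fold higher in the adult), Efemp2 (1.45-fold higher in the adult) and Col23a1 (1.52-fold higher at E15). What lay just outside the selection cannot be given, since uncalled genes carried no name.

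**Figure D1:**
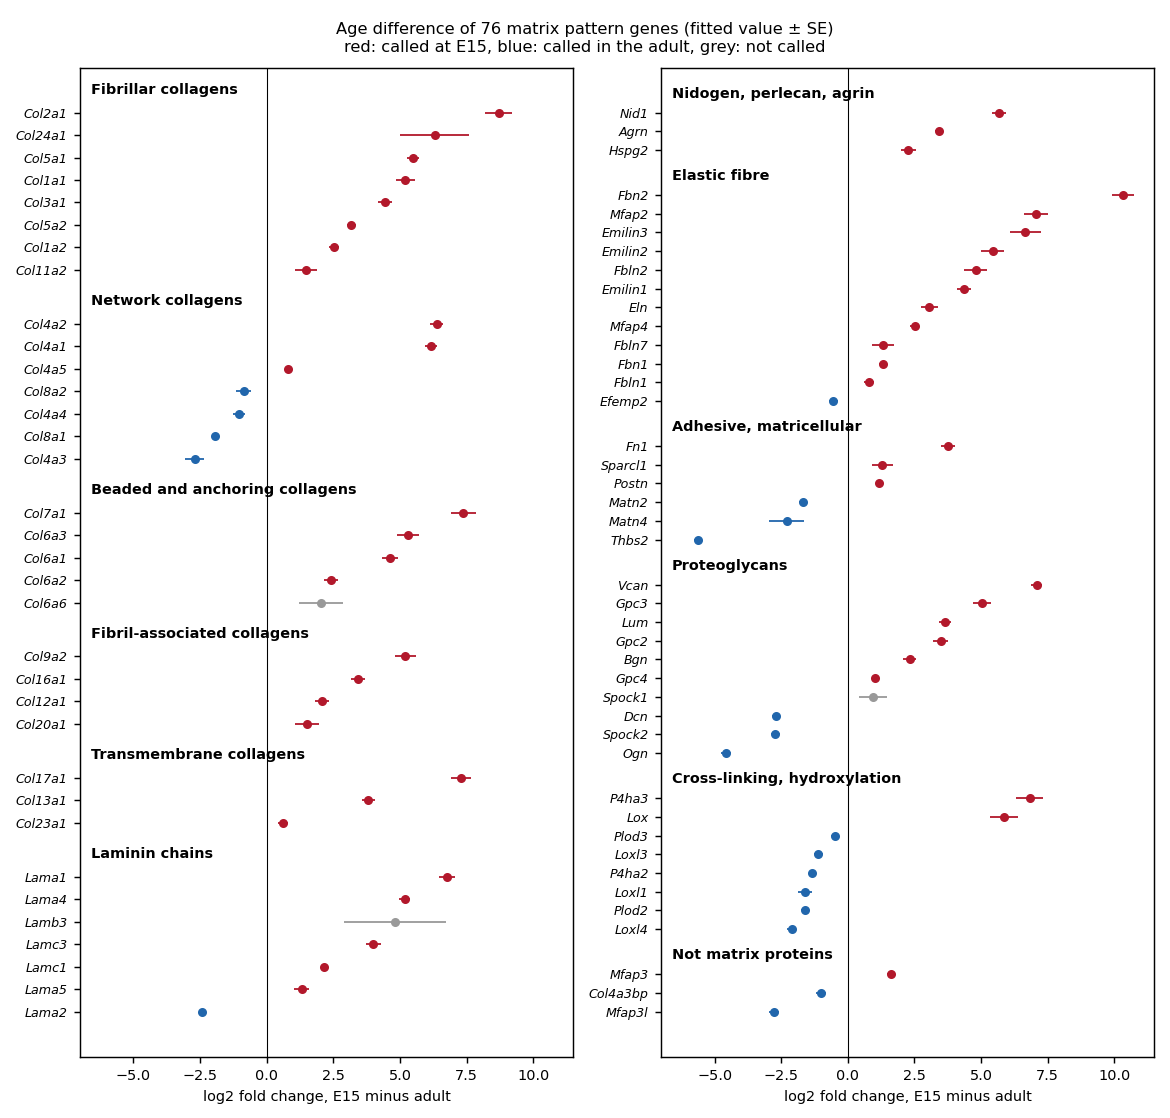
Log2 fold change (E15 minus adult, fitted value ± SE over 3 pools at each age) of 76 of the 77 members, grouped by role. Points right of 0 are higher at E15; red points were called at E15, blue points in the adult and grey points in neither. Network collagens and cross-linking enzymes lie on both sides of 0, while all 8 fibrillar collagens lie to the right.

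As a share of all counts of a library, the members took 1.08%, 1.58% and 1.35% at E15 against 0.398%, 0.438% and 0.402% in the adult. The E15 mean was 1.34% ± 0.246 and the adult mean 0.412% ± 0.0221 (SD, n = 3 each). After TMM normalization, which assumes that most genes do not differ between libraries, the summed count was 1.86-fold higher at E15. Of all genes tested, 64.0% were called. The groups differed widely in this. Summed normalized counts of fibrillar collagens were 13.3-fold higher at E15, of beaded and anchoring collagens 10.1-fold, and of nidogen, perlecan and agrin together 7.43-fold. Those of the laminin chains were nearly level, 1.10-fold higher at E15, and those of the proteoglycans and of the cross-linking enzymes were 1.70-fold and 2.23-fold higher in the adult. As shares of all counts, which follow total counts only, the laminin chains took 0.149% ± 0.0308 at E15 against 0.0779% ± 0.00175 in the adult, and the proteoglycans 0.104% ± 0.00641 against 0.101% ± 0.00553, so these sums depend on the scaling.

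**Figure D2:**
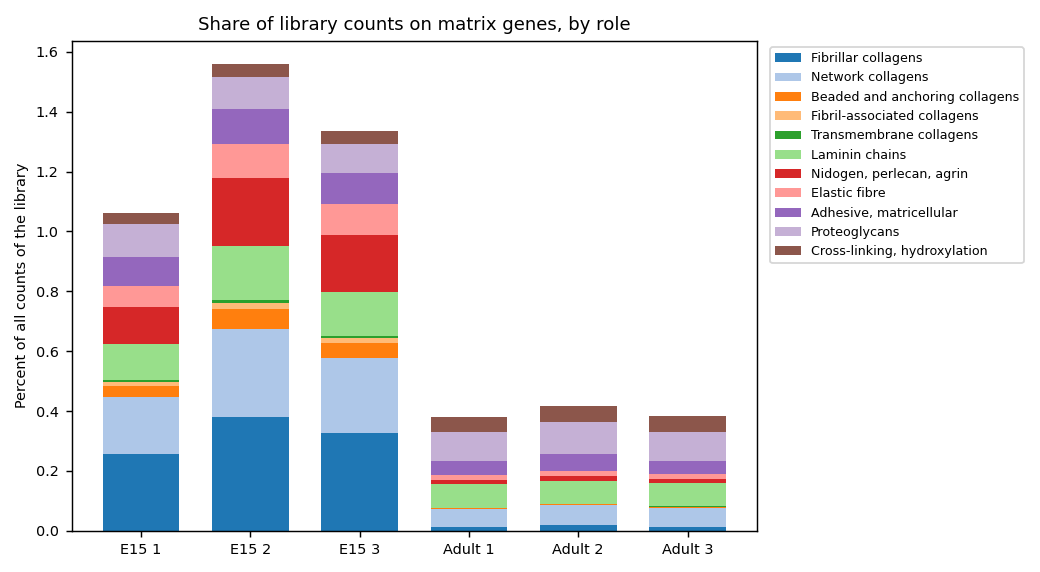
Share of all counts of each library (percent) taken by 74 members in 11 role groups, stacked, for the 3 E15 and 3 adult pools; Col4a3bp, Mfap3 and Mfap3l are left out. The fibrillar collagens took 0.258% to 0.379% at E15 and 0.0113% to 0.0177% in the adult, while the proteoglycan share was similar at both ages.

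Vessel, erythroid and neural markers and most mesenchyme markers differed with age in the same direction as most members. Macrophage and meningeal markers were divided. Markers, like the members, could be used only where the authors' table named them, so each was already called by the authors. Of all genes named there, 50.6% were called higher at E15 and 42.2% higher in the adult. This left 13 of 16 listed endothelial, 7 of 12 mural, 12 of 16 mesenchyme, 12 of 15 neural and 5 of 10 erythroid markers. All 13 endothelial markers tested were called higher at E15, and so were all 7 mural cell markers. Summed normalized counts of the endothelial list were 10550 to 15774 at E15 and 1162 to 1680 in the adult. Those of the mural list were 5166 to 6838 at E15 and 649 to 751 in the adult. Of 12 mesenchyme markers, 10 were called higher at E15 and Pdgfra higher in the adult, and because Pdgfra was abundant at both ages the summed level was 9710 to 11110 at E15 and 10589 to 11745 in the adult. No endothelial or mural marker was at 0 in every adult pool, and of the mesenchyme list Twist2 was. All 12 neural markers tested (median log2 fold change 4.72) and all 5 erythroid markers (5.89) were also called higher at E15. Of 6 macrophage markers, 2 were called higher at E15 and 3 higher in the adult. Their summed level was 1407 to 1830 at E15 and 2179 to 3057 in the adult. Of 8 meningeal markers, 5 were called higher at E15 and 3 higher in the adult. Their summed level was 15012 to 17155 at E15 and 66464 to 85605 in the adult, where Ptgds made up most of it. The part of these cell types in the differences of the matrix genes was not tested.

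All 8 fibrillar collagen chains tested were called higher at E15, with a median log2 fold change of 4.82 (3.80 with Col24a1 at its lower bound). Type I collagen, the main fibre of most connective tissues, is built from Col1a1 and Col1a2 chains. Col1a1 had 7199, 16243 and 13088 counts in E15 replicates 1, 2 and 3 and 127, 286 and 165 in the adult, a 36.7-fold difference (log2 5.20 ± 0.35 SE). Counts given by pool are raw and folds come from the normalized fit. Col1a2 had 11092, 17143 and 14252 counts at E15 against 1142, 1791 and 1344 in the adult, and was 5.78-fold higher at E15 (log2 2.53 ± 0.18). The chains of the same molecule thus differed in how far apart the ages lay, and for both every E15 pool lay above every adult pool.

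Type III collagen, a thinner fibre of distensible tissue made of Col3a1 alone, had 19082, 24414 and 21319 counts at E15 against 386, 870 and 495, a 21.7-fold difference. Type V collagen nucleates the fibres of type I. Its chain Col5a1 had 3037, 5191 and 4352 counts against 62, 43 and 56 (45.0-fold) and its chain Col5a2 had 4529, 5932 and 4988 against 352, 384 and 259 (9.01-fold), so here too the chains of a molecule differed unequally. In each of these chains E15 replicate 1 was the lowest E15 pool, and the ages did not overlap.

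Of the fibrillar chains known from cartilage or bone, the members Col2a1, Col11a2 and Col24a1 were at low levels in the adult. Col11a1, which is not a member and is given in the closing section, had 288, 280 and 195 adult counts. Col2a1 had 1039, 2517 and 2407 counts at E15 against 2, 1 and 5 in the adult, a 415-fold difference (log2 8.70 ± 0.51) that became 710-fold without adult replicate 3. Col11a2 had 52, 114 and 67 counts against 12, 24 and 13 (2.75-fold), and was not called without E15 replicate 2, when the fold was 2.15. Col24a1, a minor fibrillar chain of developing bone, had 13, 10 and 14 counts at E15 and 0 in every adult pool, and was at least 7.16-fold higher at E15 with 3 counts over the adult pools as the floor. Of 12 listed markers of cartilage and bone, 6 were named in the authors' table and so already called by the authors. Of these, 5 were called higher at E15, against 50.6% of all genes named there. Among the 5, Bglap (osteocalcin) had only 3, 10 and 6 counts at E15 and 0 in all adult pools. The summed level of that list was 248 to 285 normalized counts at E15 and 337 to 401 in the adult, where Sox5 made up most of it. The part of such cells in the Col2a1 difference was not tested.

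The 7 chains of network-forming collagens did not differ in 1 direction: 3 were called higher at E15 and 4 higher in the adult. Their median log2 fold change was -0.87, which moved to -0.06 under scaling by total counts only and to -0.40 without the 10 most abundant genes. The type IV chains Col4a1 and Col4a2, which form the ubiquitous network of basement membranes, were among the most different members. Col4a1 had 18571, 30736 and 24057 counts at E15 against 155, 226 and 210 in the adult (72.0-fold, log2 6.17 ± 0.21). Col4a2 had 7766, 14506 and 11561 against 65, 100 and 71 (83.0-fold, log2 6.37 ± 0.26). Both were high in all E15 pools and low in all adult pools, by similar factors.

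The other type IV chains behaved otherwise. Col4a5, which joins Col4a3 and Col4a4 in the network of mature epithelial basement membranes, had 3021, 3709 and 3473 counts at E15 against 1129, 1211 and 1098 in the adult, only 1.72-fold higher at E15. Col4a3 had 15, 15 and 9 counts at E15 against 49, 54 and 46 in the adult, and was 6.50-fold higher in the adult (log2 -2.70 ± 0.36). Col4a4 had 95, 145 and 127 counts against 161, 143 and 129, whose raw ranges overlap; after normalization the ages did not overlap and the adult was 2.04-fold higher, but the call was lost when libraries were scaled by total counts, with or without the 10 most abundant genes (log2 -0.22 and -0.56). The head-to-head pairs whose start regions are printed above therefore differed in opposite directions, Col4a1 and Col4a2 toward E15 and Col4a3 and Col4a4 toward the adult.

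Type VIII collagen forms hexagonal networks, best known in the membrane beneath the corneal endothelium and in vessel walls. Col8a1 was among the most abundant adult members, with 7014, 7614 and 7407 counts against 3079, 3288 and 3441 at E15, 3.87-fold higher in the adult (log2 -1.95 ± 0.09). Col8a2 had 1418, 3560 and 3459 counts at E15 against 2536, 3568 and 2809 in the adult. E15 replicate 1 was low for Col8a2 and the raw ranges overlap. The normalized difference of 1.83-fold toward the adult was not called without adult replicate 2 (1.74-fold) or under total-count scaling with or without the 10 most abundant genes (log2 -0.06 and -0.40).

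**Figure D3:**
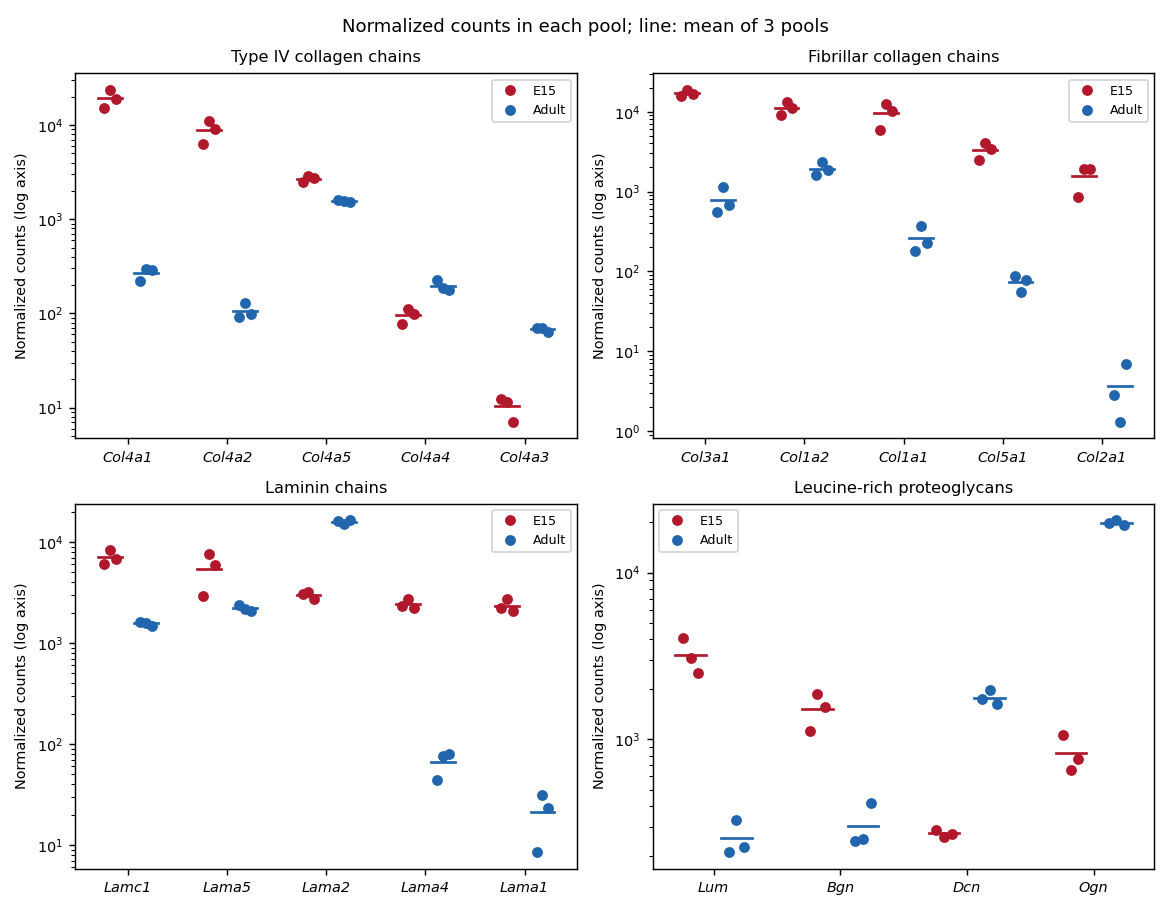
Normalized counts (log axis) of selected type IV collagen, fibrillar collagen, laminin and leucine-rich proteoglycan genes in each of the 3 E15 (red) and 3 adult (blue) pools, with lines at the mean of 3 pools. Within each of these genes the ages did not overlap, and Col4a3, Col4a4, Lama2, Dcn and Ogn were the genes higher in the adult.

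Of the 12 chains of beaded, anchoring, fibril-associated and transmembrane collagens, 11 were called higher at E15 and none higher in the adult. Type VI collagen forms beaded filaments around cells. Col6a1 had 1369, 2690 and 2001 counts against 39, 71 and 33 (24.5-fold) and Col6a2 2607, 5786 and 4322 against 530, 430 and 406 (5.35-fold). Col6a3 had 2169, 3607 and 2825 counts at E15 against 20, 82 and 26 in the adult, 39.2-fold higher at E15, or 68.3-fold without adult replicate 2, which was the highest adult pool. Col6a6, with 18, 30 and 10 counts against 3, 5 and 0, had a fitted fold of 4.11 and was not called, though it was without adult replicate 2 (6.76-fold), and the fold was 2.73 without adult replicate 3. Col7a1, the chain of the fibrils that anchor epithelia to stroma, had 297, 638 and 583 counts at E15 against 1, 3 and 1 in the adult, 166-fold higher at E15 and 256-fold without adult replicate 2.

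The fibril-associated collagens sit on the surface of fibres. Col9a2 had 498, 1123 and 832 counts against 9, 10 and 19 (37.0-fold). Col16a1 and Col12a1 were 10.7-fold and 4.20-fold higher at E15. Col20a1, at 30, 37 and 42 counts against 6, 11 and 5, was 2.86-fold higher and was not called without E15 replicate 2 (2.87-fold) or E15 replicate 3 (2.65-fold). For each of these chains every E15 pool lay above every adult pool.

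The transmembrane collagens span the cell membrane and can be shed from it. Col17a1, a hemidesmosome component of stratified epithelia, had 444, 635 and 637 counts at E15 against 1, 1 and 4 in the adult, a 158-fold difference (log2 7.31 ± 0.38) that became 300.4-fold without adult replicate 3. Col13a1 had 364, 415 and 319 counts against 13, 16 and 16 (14.1-fold). Col23a1 was close between the ages, with 443, 746 and 607 counts against 220, 248 and 214, 1.52-fold higher at E15. It was not called without E15 replicate 2 (1.35-fold) or without adult replicate 3 (1.46-fold).

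Of 8 laminin chains, 6 were called higher at E15 and Lama2 higher in the adult, with a median log2 fold change of 3.90 (2.98 with Lamb3 at its bound). Alpha chains decide which receptors a laminin binds. Lama1, the alpha chain of the earliest embryonic basement membranes, had 2705, 3509 and 2615 counts at E15 against 6, 24 and 17 in the adult (109-fold, log2 6.76 ± 0.30). Lama2, the alpha chain of muscle and peripheral nerve laminin, went the other way, with 3715, 4108 and 3470 counts at E15 against 11496, 11558 and 11970 in the adult (5.35-fold higher in the adult, log2 -2.42 ± 0.10). Of 11 listed markers of oligodendrocytes and Schwann cells, 9 were named in the authors' table and so already called by the authors. Of these, 6 were called higher in the adult and 2 (Mog and Olig2) higher at E15, against 42.2% and 50.6% of all genes named there. Their summed level was 1184 to 1325 normalized counts at E15 and 7785, 3547 and 2226 in adult replicates 1, 2 and 3. The part of such cells in the Lama2 difference was not tested.

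The alpha chains of vessel laminins also differed unequally. Lama4 had 2807, 3537 and 2813 counts at E15 against 31, 58 and 58 (36.2-fold), and Lama5 had 3567, 9787 and 7509 against 1676, 1665 and 1497 (2.48-fold). E15 replicate 1 had 0.435 of the mean Lama5 level of the other E15 pools, and was still above the adult pools after normalization. Lamc1, the gamma chain of most laminins, was 4.49-fold higher at E15, with 7371, 10762 and 8607 counts against 1145, 1217 and 1083, and Lamc3 was 16.0-fold higher. Lamb3, a beta chain of the laminin beneath stratified epithelia, had 1, 9 and 3 counts at E15 and 0 in each adult pool and was not called, with a difference of at least 2.52-fold. It was called without E15 replicate 1. Under both scalings by total counts, and by the exact test of edgeR, each of Lamb3, Col6a6 and Spock1 was called higher at E15.

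All 3 linkers of the basement membrane were called higher at E15. Nid1 (nidogen), which bridges laminin and type IV collagen, had 5295, 7954 and 6611 counts at E15 against 50, 114 and 62 in the adult, 51.1-fold. Agrn (agrin) had 7980, 12739 and 10697 against 523, 627 and 561 (10.6-fold), and Hspg2 (perlecan) had 8653, 22378 and 18109 against 1924, 2128 and 1823 (4.82-fold). For each of the 3, E15 replicate 1 was the lowest E15 pool and adult replicate 2 the highest adult pool, and the ages did not overlap.

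Of 12 genes of elastic fibres, 11 were called higher at E15 and Efemp2 higher in the adult, a direction that reversed under scaling by total counts only, with a median log2 fold change of 3.71. The fibrillins, which form the microfibril scaffold, differed most from each other. Fbn2 had 1693, 3095 and 2446 counts at E15 against 1, 2 and 0 in the adult, a ratio of 1401 with a 95% counting interval of 479 to 6793 that covers counting error only. Its fitted fold of 1277 became 2267 without adult replicate 2. Fbn1 had 2448, 3662 and 2946 counts against 597, 808 and 717, only 2.48-fold higher at E15. Adult pools thus held fibrillin RNA that was nearly all Fbn1, while both were present in similar counts at E15.

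Mfap2, a microfibril protein, had 828, 1857 and 1768 counts against 7, 10 and 2 (133-fold). Eln (elastin), the elastic core itself, had 329, 608 and 517 against 22, 50 and 29 (8.35-fold). The emilins, found at the border of elastin and microfibrils, were 20.5-fold (Emilin1) and 43.3-fold (Emilin2) higher at E15, the latter 76.8-fold without adult replicate 3. Emilin3 had 85, 154 and 158 counts at E15 against 0, 1 and 1 in the adult, a ratio of 115 with a counting interval of 31.7 to 955. All 5 were at their lowest E15 level in replicate 1, and no adult pool reached an E15 pool.

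The fibulins, which help elastin to assemble, ranged widely. Fbln2 was 27.7-fold higher at E15 (44.8-fold without adult replicate 2), and Fbln1 only 1.73-fold. Fbln7 was 2.48-fold higher, but the call was lost without E15 replicate 2 (2.33-fold), E15 replicate 3 (2.38-fold), adult replicate 1 (2.06-fold) or adult replicate 3 (2.13-fold). Mfap4 was 5.71-fold higher at E15. Efemp2 (fibulin-4), the exception, had 393, 617 and 634 counts at E15 against 456, 514 and 413 in the adult, and its normalized difference of 1.45-fold was not called without adult replicate 1 (1.46-fold) or adult replicate 2 (1.44-fold) and turned toward E15 under scaling by total counts only (log2 0.27).

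Among adhesive and matricellular proteins, 3 genes were called in each direction, and the group's median log2 fold change was -0.26, which turned to 0.54 under scaling by total counts only and to 0.21 without the 10 most abundant genes. Fn1 (fibronectin), the first scaffold laid down in most growing tissues, had 10267, 14097 and 12684 counts at E15 against 331, 797 and 478 in the adult (13.5-fold, log2 3.76 ± 0.27). Thbs2 (thrombospondin-2), an inhibitor of vessel growth, had 157, 178 and 183 counts at E15 against 5414, 4921 and 4605 in the adult, and its 49.8-fold difference (log2 -5.64 ± 0.14) was the largest of all members toward the adult. These opposite differences were each seen in every pool.

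Matn2 (matrilin-2), an adaptor between matrix filaments, was 3.23-fold higher in the adult, with 932, 1293 and 1251 counts against 1825, 2725 and 1991. Matn4 was low throughout, with 2, 7 and 4 counts against 14, 17 and 7, and its 4.90-fold difference was not called under scaling by total counts only (log2 -1.50). Postn (periostin), a collagen-binding protein of fibroblasts, was 2.26-fold higher at E15 with little spread, at 1554, 1627 and 1574 counts against 365, 438 and 422. Sparcl1 (hevin) had 4156, 5165 and 3777 counts at E15 against 613, 1983 and 573 in the adult, where replicate 2 was 3.11-fold above the mean of the other pools. It was 2.44-fold higher at E15, 4.06-fold without adult replicate 2, and not called without adult replicate 1 (2.01-fold) or adult replicate 3 (1.97-fold).

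Of 10 proteoglycan genes, 6 were called higher at E15 and 3 higher in the adult, and Spock1 in neither (39, 25 and 44 counts against 7, 20 and 6, 1.92-fold higher at E15, and called without adult replicate 2, at 3.05-fold). Vcan (versican), a hyaluronan-binding proteoglycan of loose embryonic tissue, had 4590, 4371 and 4137 counts at E15 against 18, 12 and 26 in the adult, a 135-fold difference (log2 7.08 ± 0.22). The glypicans, which carry heparan sulphate on the cell surface, were all higher at E15. Gpc3 had 3096, 4314 and 3709 counts against 32, 110 and 57 (32.6-fold), Gpc2 was 11.1-fold and Gpc4 2.04-fold higher.

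The small leucine-rich proteoglycans, which bind collagen fibrils and set their diameter, were divided. Lum (lumican) had 4955, 3980 and 3211 counts at E15 against 149, 253 and 165 in the adult, 12.6-fold higher at E15. Bgn (biglycan) was 4.98-fold higher at E15, with 1380, 2417 and 1988 counts against 174, 196 and 301. In contrast Dcn (decorin) had 352, 338 and 348 counts against 1228, 1521 and 1194, 6.52-fold higher in the adult. Ogn (osteoglycin) had 1300, 856 and 976 counts against 14044, 15906 and 14026, 24.0-fold higher in the adult (log2 -4.59 ± 0.18), and in the adult it alone held most of the proteoglycan counts. Lum and Dcn lie next to each other, 37.3 kb apart with no coding gene between them in RefSeq GRCr8, and differed in opposite directions. Spock2 (testican-2) was 6.58-fold higher in the adult, at 299, 510 and 463 counts against 1533, 1739 and 1576.

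Among cross-linking and hydroxylating enzymes, 6 of 8 genes were called higher in the adult, though Plod3 turned toward E15 under scaling by total counts only. The median log2 fold change was -1.23, which moved to -0.42 under scaling by total counts only and to -0.77 without the 10 most abundant genes. Lox, the lysyl oxidase that starts the cross-links of collagen and elastin, was the opposite case, with 270, 424 and 430 counts at E15 against 1, 9 and 1 in the adult, 58.0-fold higher at E15 and 190.3-fold without adult replicate 2. P4ha3, a catalytic subunit of prolyl hydroxylase, had 213, 321 and 298 counts against 0, 1 and 3 (113-fold, or 270.1-fold without adult replicate 3). These were the 2 enzymes higher at E15, and each was near 0 in the adult.

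The related enzymes were higher in the adult. Of the lysyl oxidase family, Loxl4 was 4.32-fold, Loxl1 3.02-fold and Loxl3 2.16-fold higher in the adult, the last not called under scaling by total counts only (log2 -0.30). Plod2, the hydroxylase of lysines in collagen telopeptides, was 3.05-fold and P4ha2 2.55-fold higher in the adult. Plod3 had a difference of 1.41-fold toward the adult that was not called under scaling by total counts without the 10 most abundant genes (1.02-fold) and turned toward E15 under scaling by total counts only (log2 0.31).

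The 3 genes that the name rule took in without being matrix genes were Col4a3bp (ceramide transfer protein), 2.02-fold higher in the adult, Mfap3, 3.05-fold higher at E15, and Mfap3l, 6.85-fold higher in the adult. Without them, 53 of 74 members were called at E15 and 18 in the adult, and the median log2 fold change was 2.52.

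Ratios between chains within a pool do not depend on how libraries are scaled, and they were compared for 12 pairs. A design of 3 pools against 3 cannot give an exact two-sided permutation p below 0.10, and the pairs are given by their values. Counts were not divided by gene length, so a ratio is compared between the ages and not with 1. The Col1a1 to Col1a2 ratio was 0.649, 0.948 and 0.918 at E15 against 0.112, 0.160 and 0.123 in the adult, 6.36-fold lower in the adult. The Col4a1 to Col4a2 ratio was 2.39, 2.12 and 2.08 at E15 against 2.37, 2.25 and 2.94 in the adult, and the ages overlapped. The proportion of Col1a1 to Col1a2 was thus separate between the ages, and that of Col4a1 to Col4a2 was not.

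The ratio of Col5a1 to Col5a2 was 4.89-fold and that of Col6a1 to Col6a2 4.81-fold lower in the adult, so in types I, V and VI the adult pools held relatively less RNA of the alpha-1 chain than of the alpha-2 chain. Col4a3 to Col4a4 was 3.19-fold higher in the adult. For the laminins the Lama1 to Lama2 ratio had a mean log2 value of -0.36 ± 0.12 at E15 (SD, n = 3) and -9.70 ± 0.98 in the adult, and the Lama4 to Lama5 ratio -1.08 ± 0.63 against -5.08 ± 0.57. The Fbn1 to Fbn2 ratio went from 0.35 ± 0.16 to 9.15 ± 1.16. Of the 12 pairs, only Col4a1 to Col4a2 and Col8a1 to Col8a2 had ratios that overlapped between the ages.

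**Figure D4:**
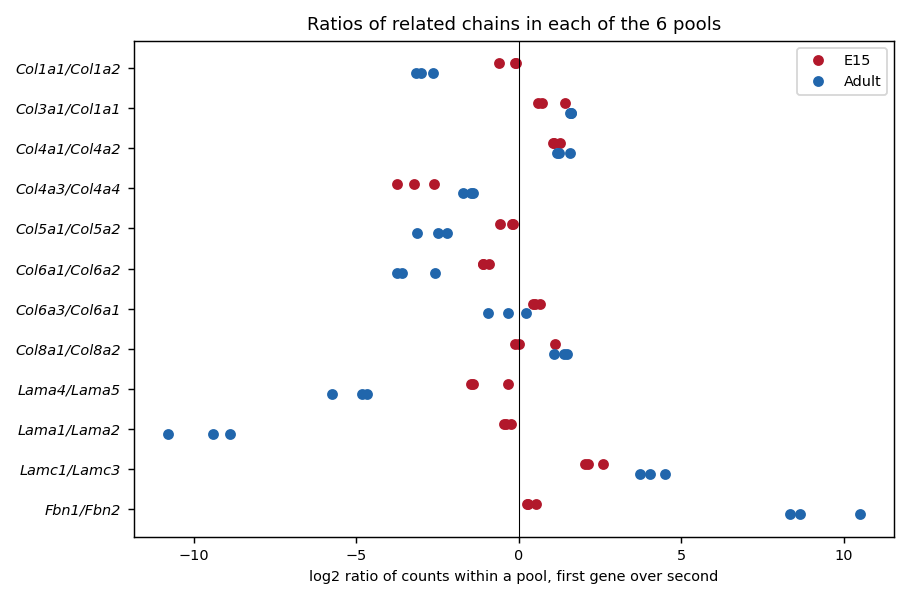
Log2 ratio of the counts of 2 related genes within each pool (pseudocount 0.5), for 12 pairs, with E15 pools in red and adult pools in blue. The ages are separate for 10 pairs and overlap for Col4a1 to Col4a2 and Col8a1 to Col8a2, and the Lama1 to Lama2 and Fbn1 to Fbn2 ratios lie furthest apart.

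Members that lie next to each other in RefSeq GRCr8 with no coding gene between them included 5 pairs. In 4 of these (Col3a1 with Col5a2, Col4a1 with Col4a2, Col4a3 with Col4a4 and Col6a1 with Col6a2) both genes were called at the same age, and Dcn with Lum was the exception.

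The spread between pools of an age was not used to choose the members. E15 replicate 1 was the lowest E15 pool for 55 of 77 members (71.4%) and for 46.2% of all genes tested, and adult replicate 2 was the highest adult pool for 45 members (58.4%) and for 33.1% of all genes. In E15 replicate 1, 40 members were under 0.75 of the mean of the other E15 pools, against 26.6% of all genes tested. The median log2 ratio of that pool to the others was -0.43 over members and -0.05 over all genes. Elastic fibre genes had a median of -0.61 and beaded and anchoring collagens -0.70, whereas the proteoglycans had 0.21, with Gpc2, Ogn and Lum above the other pools. E15 replicate 1 was also the lowest E15 pool for 9 of 13 endothelial, 8 of 12 epithelial and 7 of 12 mesenchyme markers. The same held for 6 of 8 meningeal and 5 of 6 macrophage markers. It was the highest E15 pool for 9 of 12 neural markers, against 40.4% of all genes tested. The summed level of the neural markers was 8897, 4034 and 6388 normalized counts in E15 replicates 1, 2 and 3. The part of such cells in that pool was not tested.

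In the adult, 55 members had a mean of 20 or more counts, and 13 of these were over 1.5-fold higher in replicate 2 than in the other pools, against 5.07% of all genes at that level. All 13 were members called higher at E15, as were 54 of all 77 members. The 13 included Col6a3 (3.33-fold), Sparcl1 (3.11-fold), Gpc3 (2.31-fold), Nid1 (1.90-fold), Col3a1 (1.84-fold), Fn1 (1.84-fold) and Col1a1 (1.83-fold). Lama2 (0.917-fold) and Ogn (1.06-fold), which are higher in the adult and among its most abundant members, were level. Adult replicate 2 was also the highest adult pool for 10 of 13 endothelial, 4 of 5 erythroid, 7 of 8 meningeal and 4 of 7 mural markers. The same held for 6 of 12 mesenchyme, 6 of 12 neural, 2 of 6 macrophage and 2 of 6 cartilage and bone markers. It was the highest for 1 of 9 oligodendrocyte and Schwann cell markers and for 0 of 12 epithelial markers. The part of such cells in that pool was not tested. Without adult replicate 2, 56 members were called at E15 and 18 in the adult.

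**Figure D5:**
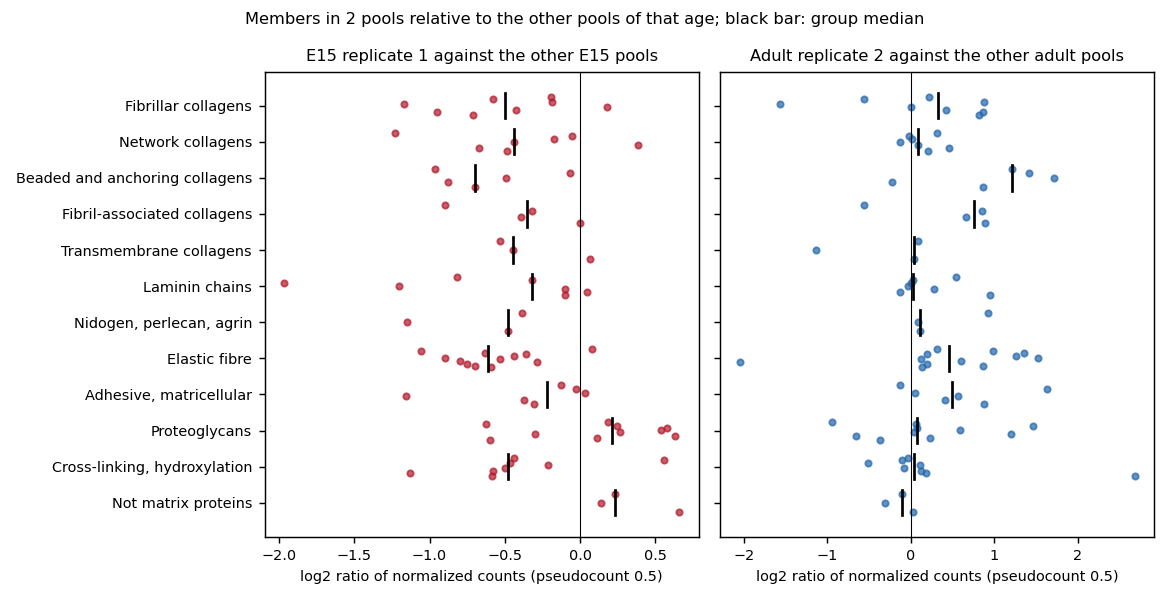
Normalized count of each of 76 members in a pool, divided by its mean in the other pools of that age and given on the log2 scale with a pseudocount of 0.5, by role group, with a black bar at the group median: E15 replicate 1 on the left and adult replicate 2 on the right. In E15 replicate 1 most groups lie below 0 and the proteoglycans above it. In adult replicate 2 the beaded and anchoring collagens have the highest median. That median is the value of Col7a1, which had 1, 3 and 1 adult counts. Col6a6 had 3, 5 and 0, and Col6a2 lies below 0 (-0.23).

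Other genes of matrix biology were taken from 3 lists, of which again only named, and so already called, genes could be used. Of 18 genes of collagen processing, 11 were called higher at E15 and 7 higher in the adult, with a median log2 fold change of 0.84. Serpinh1, the collagen chaperone of the endoplasmic reticulum, had 30053, 45861 and 43078 counts at E15 against 7916, 8249 and 7524 in the adult (2.91-fold), and Adamts3, which trims procollagen, had 116, 174 and 135 counts against 0 in every adult pool. Leprel1, a prolyl 3-hydroxylase, was 25.5-fold higher in the adult. This list held genes called at each age. Of all genes named in the authors' table, which were selected alike, 50.6% were called higher at E15 and 42.2% higher in the adult. The same shares apply beside the counts of the lists that follow.

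Of 45 other matrix genes, 29 were called higher at E15 and 14 higher in the adult, with a median of 2.33. Cthrc1, a secreted collagen-repeat protein, had 975, 1115 and 958 counts against 2, 7 and 7 (109-fold), and Has2, a hyaluronan synthase, had 84, 64 and 53 against 0 in every adult pool. In the adult direction the leucine-rich proteoglycans Fmod (fibromodulin), Prelp and Omd (osteomodulin) were 28.4-fold, 31.7-fold and 32.8-fold higher, Tnxb (tenascin-X) was 82.1-fold and Dpt (dermatopontin) 141-fold higher. Fmod had 1043, 1715 and 1437 counts at E15 against 21917, 24293 and 22675 in the adult. These leucine-rich proteoglycans differed between the ages in the direction of Ogn and Dcn and not in that of Lum and Bgn.

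Of 21 matrix receptors, 12 were called higher at E15 and 9 higher in the adult, with a median of 1.40. Itga11, a collagen receptor of fibroblasts, had 586, 743 and 541 counts against 0, 6 and 4 (106-fold), and Itga5, the fibronectin receptor chain, was 18.2-fold higher at E15. Itga7, a laminin receptor chain, had 29, 37 and 30 counts at E15 against 1310, 1480 and 1109 in the adult, 69.6-fold higher in the adult. Itgb8 and Itgb6, chains of receptors that bind latent growth factor, were 33.2-fold and 36.6-fold higher in the adult.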

How the data were processed

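Total RNA of whole lateral ventricular choroid plexus was sequenced from 3 pools of 10 animals at E15 and 3 in the adult. The authors trimmed the reads, mapped them with Bowtie 0.12.7 to Ensembl rat release 61, discarded reads without a unique place and counted the rest with HTSeq 0.4.7p4 (union option), so genes with near-identical copies are uncertain. The deposited counts are whole numbers for 29479 identifiers, without normalization. A deposited table of the authors' own comparison (edgeR 2.4.0, exact test, common dispersion) holds log2 fold changes, log2 abundances, p-values and adjusted p-values for the 10653 genes they called. None of these values was used, and the table gave names and descriptions only.

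Counts were fitted with edgeR 4.0.16 (glmQLFit, glmQLFTest) in R 4.3.3, after TMM scaling, in a model of age alone on genes whose counts summed to more than 10, and p-values were adjusted by the Benjamini-Hochberg method over all genes tested. Normalized counts were scaled to a library of 19265016. The SE of a log2 fold change was its size divided by the square root of the F statistic. A gene with no count at an age was held at 3 counts over that age's pools, and ratios with 1 to 3 counts have 95% intervals. Both cover counting error only. The steps were tested on simulated data. Replicates differed beyond sampling noise (chi-square per degree of freedom 5.4 to 56.42), and each was kept. The spread measured is that between pools.

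Alternatives were other scalings, filters and tests (DESeq2 1.42.0, limma 3.58.1), a replicate block and leaving out each pool. Genes named with statistics were, in each role group, the 2 with the highest mean at each age and the 2 largest differences in each direction, with all chains of the 12 pairs and Col13a1 and Col17a1. The other members are given to account for the 77, except 1 member that enters the counts and medians but whose own values are not reported here. Members and lists were chosen with earlier results of these data known. Lists were made in Python 3.11.15 (pandas 2.3.3, numpy 2.4.6, scipy 1.17.1) and figures with matplotlib 3.10.9.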

Additional observations from a re-analysis of the deposited data

How the results depend on the processing

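Of the 54 members named by rule, all kept direction and call under DESeq2's size factors, no filter, filterByExpr, the DESeq2 Wald test, edgeR's exact test and limma-voom. Scaling by total counts only moved the median of all genes from 0.14 to 0.95 on the log2 scale and the share of calls that were higher at E15 from 54.2% to 81.0%. Scaling by total counts without the 10 most abundant genes moved them to 0.60 and 71.6%. Under total counts only, 13 members were called higher in the adult and the median of the members was 3.23, while the log2 fold changes of Plod3 (0.31) and Efemp2 (0.27) reversed. Without the 10 most abundant genes the median was 2.89. Leaving out each pool gave 50 to 56 members called at E15, 18 to 20 called in the adult and medians of 2.14 to 2.59. With the replicate number as a block, 54 members were called at E15 and 20 in the adult, the median was 2.37, and no call among the named members changed. The pairing has no basis beyond the shared number, since deviations of same-numbered pools correlated at -0.0072, -0.0105 and -0.0384. At this depth, members with under 5 adult counts in every pool have folds that depend on single counts.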

Other observations

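The authors' table describes 7 further identifiers as matrix genes without giving a symbol that the name rule takes in, and they were chosen after their values were seen. Col18a1, the collagen of vessel and epithelial basement membranes from which endostatin is cut, had 4862, 9277 and 7317 counts at E15 against 41, 67 and 49 in the adult (79.0-fold). Lamb1, the beta chain that pairs with Lamc1, had 7927, 10634 and 9237 against 529, 860 and 573 (8.26-fold). Col14a1, a fibril-associated collagen, was 12.1-fold higher at E15, at 1021, 1148 and 1410 counts against 61, 47 and 63. Col11a1, a fibrillar chain, was 3.71-fold higher at E15, at 2001, 1463 and 1395 counts against 288, 280 and 195. Col9a1 had 15, 33 and 25 counts at E15 and 0 in every adult pool, at least 14.1-fold higher. Nid2 had 11, 16 and 21 counts against 0, 2 and 0, a ratio of 13.9 with a 95% counting interval of 3.65 to 118. A second identifier described as the Col4a2 chain had 52, 171 and 148 counts against 0 in every adult pool, at least 71.8-fold higher. In all 7 the E15 pools lay above the adult pools.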
